A study of Mus musculus with 18 samples.

Results

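Transcripts of 10 genes for matricellular proteins and their close partners in the matrix (Fn1, Tnc, Vcan, Thbs1, Thbs2, Sparc, Postn, Spp1, Edil3 and Ptn) were measured in 18 lung metastases taken by laser capture from 5 mice. The 10 genes, out of 49585 gene identifiers in the count table, were chosen by name with the difference between NK and Ctrl lesions of the same data already known. Their NK-against-Ctrl values are therefore given as a description, while differences between mice of 1 group were not used in the choice and were tested. The NK group holds 7 lesions of 2 mice, NK1 (3 lesions) and NK2 (4 lesions), which received 60000 mouse NK cells, activated in culture, by vein on day 11. The Ctrl group holds 11 lesions of 3 mice, labelled KO1 (5 lesions), KO2 (4 lesions) and KO3 (2 lesions), and the treatment protocol gives PBS as the alternative to NK cells. All 5 mice are labelled Rag2-/-IL2rg-/-, a strain without T, B or NK cells of its own, whereas the growth protocol names Rag1-/-IL2rg-/-, and ages are not given in the sources used here. Both groups bore tumours of 1 cell line, AT3, which came from a mammary tumour of an MMTV-PyMT mouse. The cells carried GFP and mCherry and reached the lungs from the mammary fat pad without further handling. A lesion is written as mouse and lesion number, so NK1-3 is lesion 3 of mouse NK1. All 10 genes were matched and passed the filter on low counts.

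Matricellular proteins are secreted into the extracellular matrix, where they act on cells through integrins, CD44, syndecans and other receptors more than they carry load. Adult tissue holds little of most of them, and wounds, fibrosis and tumour stroma hold more. In mouse breast cancer models tenascin C and periostin are known as niche proteins that help disseminated cells to grow in the lung. Fibronectin is a fibril-forming glycoprotein and versican a large proteoglycan. Both form the provisional matrix in which the other proteins sit.

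The libraries held 2964242 to 11798897 counts in NK lesions and 5690467 to 9816244 counts in Ctrl lesions. The mitochondrial ribosomal RNA gene mt-Rnr2 took 13.7% to 65.3% of the counts in NK lesions and 12.1% to 68.7% in Ctrl lesions, with all 3 NK1 lesions, KO1-2, KO1-5 and KO3-2 above 40%. The epithelial markers of the tumour list (Krt8, Krt18, Epcam and others, 8 of 8 with counts) summed to 98.6 to 654 CPM in NK lesions and 75.1 to 317 CPM in Ctrl lesions, markers that lung epithelium shares. The 10 NK cell markers, such as Ncr1 and Gzma, summed to 5.04 to 48.7 CPM in NK lesions and 0.0832 to 8.97 CPM in Ctrl lesions, with 5 of 7 NK lesions above all Ctrl lesions. NK1-1 stood apart in cardiac muscle markers (197 CPM, against at most 28.6 CPM in a Ctrl lesion) and fat cell markers (756 CPM, against at most 5.57 CPM in a Ctrl lesion). NK1-3 was the shallowest library and had 24704 CPM of airway markers. CPM are counts scaled to a common library total after TMM scaling, in which library sizes are adjusted so that most genes do not shift. In bulk samples such as these, fewer cells of a type and less RNA per cell cannot be told apart. Nothing in the labels gives separate procedures for the lesions of a mouse, so p-values over lesions measure the spread between these samples, which may be partly technical.

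The start regions of Tnc, Postn and Thbs2, which hold the TATA box letters, are shown. The log2 fold changes of these genes between NK and Ctrl mice were 1.54, 2.23 and 2.29. Spp1 also holds these letters, 211 bases before its start, with a log2 fold change of 0.28, and is not shown. Of the 10 genes, 7 have a promoter entry in RefSeq (build GRCm38.p6), and Fn1, Thbs1 and Edil3 have none. Ptn, with a log2 fold change of 2.83, has an entry without these letters. Each line gives the 250 bases before the listed start, 5′ to 3′ on the strand of the gene, with capitals marking TATAAA, the TATA box letters, or its reverse complement. The windows are chr4:64047016-64047265 on the minus strand for Tnc, chr3:54360857-54361106 on the plus strand for Postn and chr17:14694263-14694512 on the minus strand for Thbs2.
Tnc: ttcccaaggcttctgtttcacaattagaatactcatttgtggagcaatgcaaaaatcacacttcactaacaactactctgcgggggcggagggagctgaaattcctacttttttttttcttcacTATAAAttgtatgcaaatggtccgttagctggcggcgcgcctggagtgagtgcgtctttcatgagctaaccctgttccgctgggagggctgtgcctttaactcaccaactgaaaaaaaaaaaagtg
Postn: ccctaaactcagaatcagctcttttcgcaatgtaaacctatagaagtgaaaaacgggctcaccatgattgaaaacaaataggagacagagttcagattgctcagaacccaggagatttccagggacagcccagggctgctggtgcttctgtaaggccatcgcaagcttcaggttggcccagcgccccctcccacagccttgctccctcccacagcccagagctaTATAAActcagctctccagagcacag
Thbs2: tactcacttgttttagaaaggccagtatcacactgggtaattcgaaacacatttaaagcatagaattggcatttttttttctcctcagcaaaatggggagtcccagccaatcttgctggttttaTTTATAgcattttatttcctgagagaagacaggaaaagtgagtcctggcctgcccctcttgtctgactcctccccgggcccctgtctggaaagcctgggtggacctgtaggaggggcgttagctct

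The match began 126 bases before the start in Tnc, 26 bases before it in Postn and 126 bases before it in Thbs2. In Postn the letters thus lie close to where a TATA box usually sits, and in Tnc farther upstream. In Thbs2 the match is the reverse complement, TTTATA, and also lies farther upstream. Windows from 250 bases before to 50 bases after the start were searched on both strands for 3 motifs. TATAAA was found in 4 of the 7 windows (Tnc, Postn, Spp1 and, as the reverse complement, Thbs2), against 13.6% of 32851 mouse promoters of the same length. The listed start of Sparc lies 3103 bases from its gene start in GENCODE. The AP-1 letters TGANTCA were in 0 of 7 windows, against 7.81% of all promoters, and the TEAD letters GGAATG were in 0 of 7, against 14.7%. A match is a description of the letters in this window and not a binding site.

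Set per length, so that genes can be compared, Spp1, Sparc and Fn1 stood above the other members. Across the 18 lesions the median level was 171 CPM per kb of exon for Spp1, 90.9 CPM per kb for Sparc and 60.6 CPM per kb for Fn1, and these genes took ranks 1 to 3 among the 10 in every lesion. The next median was 7.99 CPM per kb for Tnc, followed by 4.76 for Vcan, 3.39 for Postn, 3.09 for Thbs1, 2.91 for Thbs2 and 2.73 for Ptn. The order of those last genes is not resolved, since each ranged over several ranks between lesions. Edil3 was lowest at 0.196 CPM per kb and held rank 9 or 10 in every lesion. The members together summed to 3381 CPM in NK1-1, 2977 in NK1-2, 507 in NK1-3 and 1625 to 2712 CPM in the NK2 lesions, against 616 to 1877 CPM in the Ctrl lesions. Fn1 made up 32.4% to 65.0% of this sum.

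**Figure D1:**
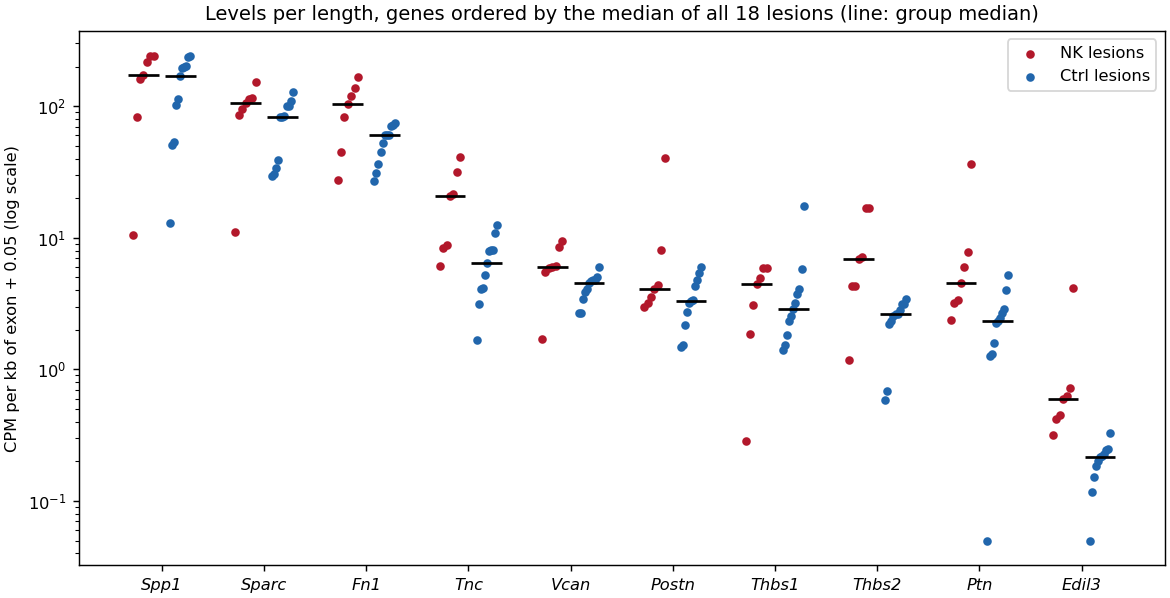
Level of each gene in CPM per kb of exon on a log axis (0.05 added so that 0 can be drawn), with 1 point per lesion, NK lesions left of Ctrl lesions and the group median as a line. Spp1, Sparc and Fn1 lie above the other 7 genes, and Edil3 is lowest, with an NK median of 0.548 and a Ctrl median of 0.166 CPM per kb before the addition.

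When counts were summed per mouse and the 2 NK mice were set against the 3 Ctrl mice with edgeR's quasi-likelihood test, all 10 members had a positive log2 fold change. The median log2 fold change was 1.29, against -0.03 over the 16917 genes tested. No gene passed a Benjamini-Hochberg adjusted p of 0.05 (0% of the genes tested, and 0 of 10 members), and the adjusted p was 0.9998 for each member. At an unadjusted p under 0.05, 6 of 10 members were higher with NK cells, beside 1.55% of all genes, and 0 of 10 were lower, beside 0.969%. Fn1, Tnc, Thbs2, Sparc, Edil3 and Ptn were higher in both NK mice than in all 3 Ctrl mice (6 of 10, beside 7.94% of all genes), and 0 of 10 were lower in both, beside 6.86%. The 6 at an unadjusted p under 0.05 became 4 without lesion NK1-1, 2 without mouse NK1 and 1 without the lesions over 40% mt-Rnr2. These counts come from the contrast the genes were chosen with. DESeq2 called 39 genes (0.223%) in this comparison, Edil3 among them (adjusted p = 0.00671).

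Summed markers of fibroblasts and macrophages were set beside these values. The 12 fibroblast markers, such as Col1a1, Dcn and Lum, summed to 8343 CPM in NK1-1, 3070 in NK1-2, 492 in NK1-3 and 977 to 1421 CPM in the NK2 lesions, against 173 to 870 CPM in Ctrl lesions. That placed 6 of 7 NK lesions above all Ctrl lesions. Of the 12 markers, 8 had higher fitted levels in NK mice and 0 passed edgeR's adjusted p. Macrophage markers, which mark another known source of Spp1 and Fn1, overlapped between 498 to 4542 CPM in NK lesions and 1122 to 3638 CPM in Ctrl lesions, with 9 of 12 higher in NK mice. The defining markers of both cell types had counts, and the part that either cell type has in the member values was not tested.

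**Figure D2:**
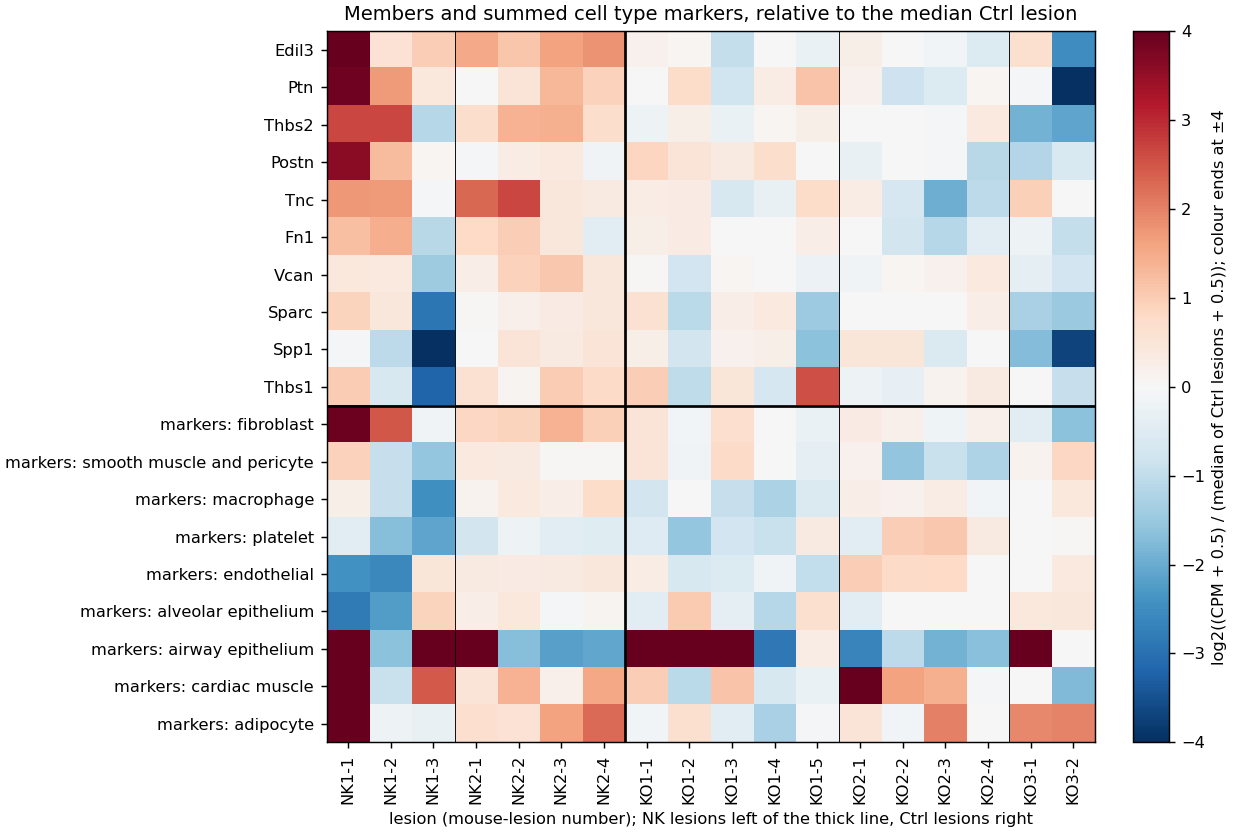
Each cell is 1 lesion's log2 level relative to the median Ctrl lesion (0.5 CPM added to both), for the 10 genes above the horizontal line and for summed cell type markers below it, with NK lesions left of the thick line. NK1-1 is dark red for Edil3, Ptn, Postn and the fibroblast, cardiac muscle and fat cell markers, and NK1-3 is blue for Spp1, Thbs1 and Sparc.

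Among the provisional matrix genes, Fn1 (chromosome 1, 71585520 to 71653200, minus strand, GRCm38) encodes fibronectin, the ligand of integrin alpha5 beta1. Its level was 1595, 1935 and 322 CPM in the NK1 lesions and 1218, 1391, 959 and 526.2 CPM in the NK2 lesions, against a low of 316, a median of 700 and a high of 876 CPM in the 11 Ctrl lesions. So 5 of 7 NK lesions lay above all Ctrl lesions, and NK1-3 and NK2-4 lay within the Ctrl range. Per mouse, Fn1 was 1255 ± 288 CPM in NK mice and 616 ± 148 CPM in Ctrl mice (SD, n = 2 and 3), a log2 fold change of 1.03 ± 0.40 (SE). Leaving out 1 mouse or 1 lesion at a time gave 0.78 to 1.27.

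Tnc (chromosome 4, 63959785 to 64047015, minus strand) encodes tenascin C, which binds fibronectin and integrins. Its level was 166, 162 and 46.8 CPM in the NK1 lesions and 245, 318, 68.4 and 64.4 CPM in the NK2 lesions, against 12.6, 49.8 and 96.4 CPM as the low, median and high of the Ctrl lesions. The NK2 lesions split into a high pair and a low pair, and the low pair lay within the Ctrl range. Per mouse Tnc was 161 ± 23.9 CPM in NK mice and 55.3 ± 24.3 CPM in Ctrl mice (SD, n = 2 and 3), a log2 fold change of 1.54 ± 0.44 (SE). Both NK mice contributed, with 144 CPM in NK1 and 178 CPM in NK2, against 49.7, 34.4 and 82.0 CPM in KO1, KO2 and KO3. A non-coding gene on the opposite strand, 8030451A03Rik, overlaps Tnc exons and had 279 counts in all, against 11491 Tnc counts in NK lesions and 4294 in Ctrl lesions. The sources used here do not say whether reads were counted by strand.

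Vcan (chromosome 13, 89655312 to 89742509, minus strand) encodes versican, a proteoglycan that binds hyaluronan and CD44. Its level was 86.1, 85.2 and 23.8 CPM in the NK1 lesions and 78.1, 122, 137 and 88.2 CPM in the NK2 lesions, against 37.8, 64.8 and 85.6 CPM as the low, median and high of Ctrl lesions. Above all Ctrl lesions lay 4 of 7 NK lesions, NK2-2 and NK2-3 by the widest margin, and NK1-3 was the lowest of all 18. The log2 fold change was 0.57 ± 0.39 (SE), from 93.1 ± 25.4 CPM in NK mice and 62.9 ± 15.1 CPM in Ctrl mice (SD, n = 2 and 3), and it was 0.25 without mouse NK2.

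**Figure D3:**
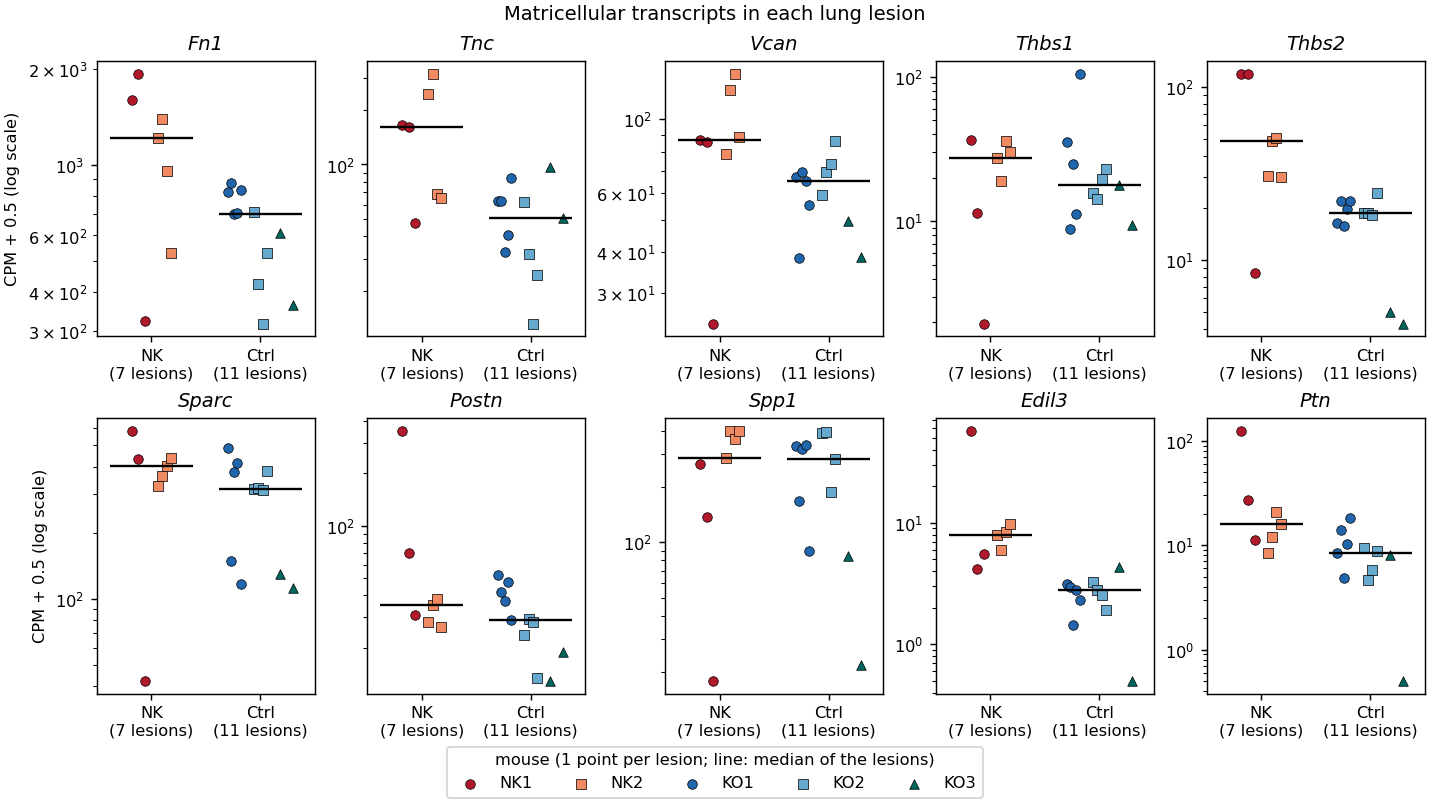
CPM plus 0.5 in each lesion on log axes, 1 panel per gene with its own scale, NK lesions left of Ctrl lesions, colour and shape giving the mouse and the line giving the median of the lesions. Edil3 and Thbs2 have 6 of 7 NK points above all Ctrl points, Thbs1 has 0 of 7, and a single NK1 point (NK1-1) stands far above the rest for Postn, Edil3 and Ptn.

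The thrombospondins differed from each other. Thbs2 (chromosome 17, 14665500 to 14694235, minus strand) encodes thrombospondin 2, an inhibitor of angiogenesis made by stromal cells. Its level was 118.6, 118.1 and 7.92 CPM in the NK1 lesions and 29.9, 48.2, 49.9 and 29.6 CPM in the NK2 lesions, against a low of 3.78, a median of 18.1 and a high of 23.8 CPM in the Ctrl lesions. Except for NK1-3, the NK lesions lay above all Ctrl lesions. Per mouse it was 70.7 ± 41.9 CPM in NK mice and 14.3 ± 8.74 CPM in Ctrl mice (SD, n = 2 and 3), a log2 fold change of 2.29 ± 0.68 (SE) that was lowest, at 1.51, without mouse NK1 when 1 mouse or lesion was left out.

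Thbs1 (chromosome 2, 118111876 to 118127133, plus strand) encodes thrombospondin 1, which activates latent TGF-beta, binds CD47 and CD36 and is stored in platelets. Its level was 35.8, 11.0 and 1.44 CPM in the NK1 lesions and 26.8, 18.5, 35.3 and 29.5 CPM in the NK2 lesions, against 8.29, 17.3 and 104.7 CPM as the low, median and high of Ctrl lesions. The groups overlapped, with 0 of 7 NK lesions above all Ctrl lesions, and the value of NK1-3 rests on 2 counts. The highest Ctrl value came from KO1-5, whose 6 platelet markers summed to 22.0 CPM within a Ctrl range of 5.53 to 36.7 CPM. The other KO1 lesions had platelet sums of 5.53 to 11.7 CPM. Higher platelet sums than in KO1-5 were found in KO2-2 (34.1 CPM) and KO2-3 (36.7 CPM), where Thbs1 was at 13.8 and 19.0 CPM. The part of platelets in the Thbs1 values was not tested. For Thbs1 the log2 fold change was 0.38 ± 0.43 (SE), and it was -0.14 without NK1-1 and -0.06 in the authors' normalized table.

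Sparc, Postn and Spp1 encode proteins that bind collagen or mineral. Sparc (chromosome 11, 55394500 to 55423183, minus strand), or osteonectin, is a collagen chaperone. Its level was 582, 430 and 41.8 CPM in the NK1 lesions and 326, 363, 400 and 437 CPM in the NK2 lesions, against 112, 316 and 484 CPM as the low, median and high of Ctrl lesions. Apart from NK1-1 and NK1-3, all NK values sat inside the Ctrl range. The 4 Ctrl lesions under 150 CPM were KO1-2, KO1-5, KO3-1 and KO3-2, 3 of which had over 40% of their counts in mt-Rnr2. Among NK lesions, NK1-3, the lowest of all for Sparc, had 52.0% there, NK1-1 had 47.6% and 582 CPM of Sparc, and NK1-2 had 65.3% and 430 CPM. The part of this share in the Sparc values was not tested. Its log2 fold change was 0.56 ± 0.51 (SE), and it was 0.28 without NK1-1 and 0.21 without mouse KO3.

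Postn (chromosome 3, 54361109 to 54391037, plus strand) encodes periostin, which links tenascin C to collagen and is made by fibroblasts. Its level was 351, 69.4 and 30.2 CPM in the NK1 lesions and 27.6, 34.8, 37.7 and 25.7 CPM in the NK2 lesions, against 12.4, 28.4 and 51.8 CPM as the low, median and high of Ctrl lesions. The 4 NK2 lesions and NK1-3 lay inside the Ctrl range, and 52.0% of all NK counts of Postn came from NK1-1. The log2 fold change of 2.23 ± 0.78 (SE) was 0.67 without NK1-1 and 0.22 without mouse NK1.

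Spp1 (chromosome 5, 104435118 to 104441050, plus strand) encodes osteopontin, a ligand of CD44 and alphav integrins made by macrophages and tumour cells. Its level was 265, 136 and 17.3 CPM in the NK1 lesions and 284, 399, 359 and 400 CPM in the NK2 lesions, against 21.2, 280 and 393 CPM as the low, median and high of Ctrl lesions. The groups overlapped, with 2 of 7 NK lesions above all Ctrl lesions and NK1-3 below them. For Spp1 the log2 fold change was 0.28 ± 0.68 (SE), and it was -0.29 without mouse NK2 and -0.17 without mouse KO3.

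Edil3 and Ptn are the secreted signalling members. Edil3 (chromosome 13, 88821472 to 89323223, plus strand) encodes an RGD protein, also called Del-1, that binds alphav beta3 integrin. Its level was 56.6, 3.65 and 5.04 CPM in the NK1 lesions and 7.50, 5.43, 7.92 and 9.25 CPM in the NK2 lesions, against a low of 0, a median of 2.28 and a high of 3.82 CPM in the Ctrl lesions. Apart from NK1-2, the NK lesions lay above all Ctrl lesions, and NK1-2 lay above 10 of 11. The depth is thin, with 359 counts in NK1-1, 7 in NK1-3 and 78 to 159 in the NK2 lesions, against 0 to 32 in the Ctrl lesions. The count of 0 in KO3-2 allows a level of up to 0.708 CPM (3 counts), for counting error only. Per mouse Edil3 was 35.7 CPM in NK1 and 8.01 CPM in NK2, against 1.98, 2.26 and 2.52 CPM in KO1, KO2 and KO3. Its log2 fold change was 3.27 ± 0.68 (SE), and it was 1.47 without NK1-1.

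Ptn (chromosome 6, 36714929 to 36810220, minus strand) encodes pleiotrophin, a heparin-binding growth factor that acts through the receptor phosphatase Ptprz1. Its level was 124.6, 26.8 and 10.8 CPM in the NK1 lesions and 7.94, 11.4, 20.5 and 15.53 CPM in the NK2 lesions, against 0, 7.89 and 17.8 CPM as the low, median and high of Ctrl lesions. All 7 NK lesions lay above the Ctrl median and 3 lay above all Ctrl lesions. KO3-2 again had 0 counts. The log2 fold change was 2.83 ± 0.69 (SE), 1.41 without NK1-1 and 1.10 without mouse NK1.

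**Figure D4:**
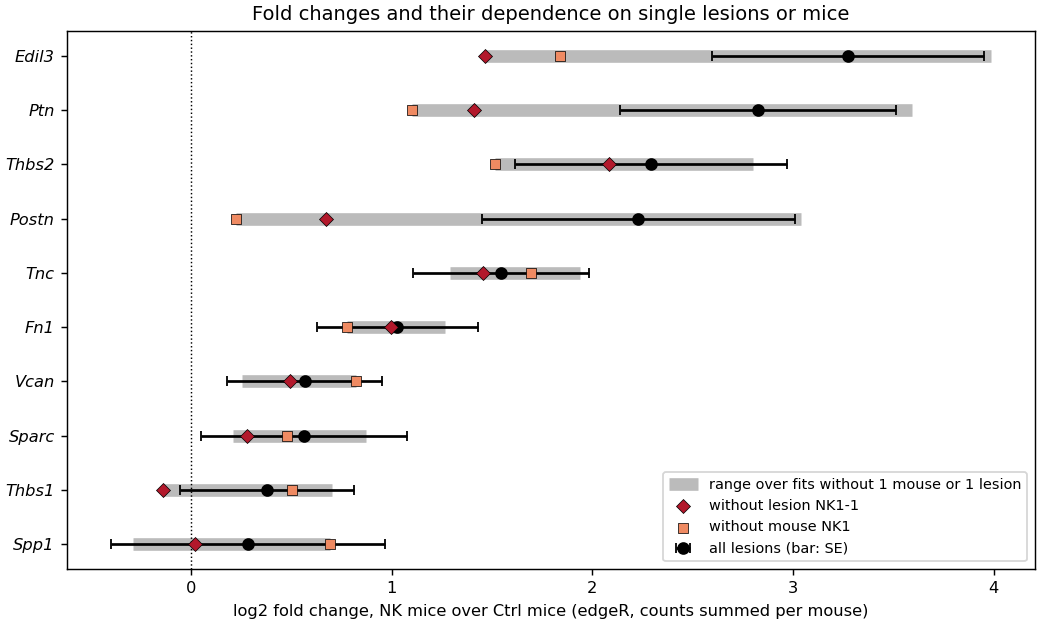
Log2 fold change of each gene, NK mice over Ctrl mice, with its SE (black), the range over fits without 1 mouse or 1 lesion (grey) and the values without lesion NK1-1 (diamond) or without mouse NK1 (square). Edil3, Ptn and Postn shift far to the left without NK1-1, while Tnc, Fn1 and Thbs2 move by less than their SE without that lesion.

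The lesion NK1-1 set the size of several of these differences. It held 43.6% of the NK counts of Edil3, 46.7% of those of Ptn and 52.0% of those of Postn, but 22.4% of those of Thbs2. Without NK1-1 and NK1-3 together, the log2 fold changes were 2.55 for Thbs2, 1.68 for Tnc, 1.66 for Ptn, 1.44 for Edil3, 1.36 for Fn1, 0.93 for Postn, 0.70 for Vcan, 0.59 for Sparc, 0.17 for Spp1 and 0.02 for Thbs1. The order of the genes thus differed from that with all lesions, in which Edil3 and Ptn came before Thbs2. Without these 2 lesions, mouse NK1 rests on NK1-2 alone, which had 65.3% of its counts in mt-Rnr2.

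Lesions of the 3 Ctrl mice were then compared with each other in 1 fit over 11 lesions, a comparison that was not part of the choice of genes. Thbs2 passed edgeR's adjusted p (0.0376), 1 of 10 members beside 2.70% of the 14677 genes tested. Its level was 4.48 and 3.78 CPM in the KO3 lesions, against 15.1 to 21.5 CPM in the 5 KO1 lesions and 17.6 to 23.8 CPM in the 4 KO2 lesions, with no overlap. The fitted log2 range over the mice was 2.20. This call did not hold in 11 of 17 alternatives, 9 of them fits without 1 lesion, where the adjusted p reached 0.145 (without KO3-2), although the fitted range stayed at 1.49 or more in all 17. KO3-1 had 34 counts of Thbs2 and KO3-2 had 16, which limits the precision.

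Other members did not pass this test. Spp1 had the widest fitted range, 2.55 (edgeR adjusted p = 0.0894), with 83.6 and 21.2 CPM in KO3, 88.7 to 333 CPM in KO1 and 187 to 393 CPM in KO2. Postn had the next lowest p (adjusted p = 0.105) with a fitted range of 1.41, at 12.4 and 18.4 CPM in KO3, against 28.4 to 51.8 CPM in KO1 and 12.98 to 28.8 CPM in KO2. Sparc had an edgeR adjusted p of 0.181 and a fitted range of 1.44. Without the Ctrl lesions over 40% mt-Rnr2, mouse KO3 rests on KO3-1 alone. Sparc was at 129 CPM there, against 312 to 484 CPM in the remaining KO1 and KO2 lesions. DESeq2 called Thbs2, Spp1 (adjusted p = 0.0152) and Postn (adjusted p = 0.0155), 3 of 10 members beside 14.5% of the 15191 genes it tested. Edil3, the member with the largest NK-to-Ctrl value, had means of 2.03 ± 0.682 CPM in KO1, 2.12 ± 0.550 CPM in KO2 and 1.91 ± 2.70 CPM in KO3 (SD over 5, 4 and 2 lesions).

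Between mice NK1 and NK2, edgeR called 0 of 10 members and 0% of the 13400 genes tested, higher or lower in NK1. At an unadjusted p under 0.05 it had 2 of 10 members and 2299 genes (17.2%). DESeq2 called 991 genes (6.69%), Postn among them (adjusted p = 0.0292). Without NK1-3, edgeR called 102 genes (0.718%) and 0 members. The log2 difference, NK1 minus NK2, was 2.26 ± 0.69 (SE, edgeR adjusted p = 0.199) for Postn and 1.98 ± 0.72 (adjusted p = 0.233) for Ptn. Without NK1-1 the difference was 0.76 for Postn and 0.55 for Ptn. For Edil3 it was 1.56 ± 0.83 with all lesions and -0.71 without NK1-1, so that the other NK1 lesions lay below the NK2 lesions.

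Lesions of 1 mouse also differed. The pooled SD of log2 CPM among lesions of the same mouse ran from 0.51 for Vcan and 0.70 for Fn1 to 1.23 for Thbs1 and Edil3 and 1.35 for Ptn, against a median of 0.93 over all genes and 0.59 over genes above 20 CPM. Vcan lay below both medians and Fn1 between them. The mouse means of Edil3 spanned 3.49 and those of Ptn 4.69 on the log2 scale, and those of Fn1 1.08. The spans of Edil3 and Ptn include the count of 0 in KO3-2.

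Across the 18 lesions, Fn1 and Tnc went together (Spearman rho 0.79, and 0.86 after each mouse's mean was removed). Thbs2 went with Ptn (0.77), Vcan (0.75) and Fn1 (0.74), and Sparc with Vcan (0.72). Sparc and Spp1 had a rho of 0.56, and of 0.87 within mice. Tnc and Spp1 were unrelated in rank (0.01). Lesions share mice, depth and capture, so these values describe the 18 samples.

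Of all genes tested, the 3 most like each member by Spearman rho over the 18 lesions were looked up. Fn1 was most like Gxylt2 (0.92), Dpt (0.90) and Zfp9 (0.89), and Tnc was most like Lum (0.87), Dnm3os (0.83) and Dpt (0.82). Edil3 was most like Col11a1 (0.85), Lum (0.83) and Hsbp1 (0.83), and Thbs2 was most like Lhfpl2 (0.85), Tnfaip6 (0.84) and Agtr2 (0.83). Within mice the rho was 0.65 for Tnc and Lum, 0.39 for Edil3 and Lum and 0.24 for Thbs2 and Tnfaip6. Lum and Dpt, which encode the matrix proteins lumican and dermatopontin, are also in the fibroblast marker list. Sparc was most like Ppm1a (0.95), Akr1a1 (0.92) and Zfp758 (0.89). Over all members the rho of these nearest genes was 0.79 to 0.95.

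Relatives of the members were counted in the same fit. Of 34 matricellular relatives, 22 passed the filter, 13 had a positive and 9 a negative log2 fold change in NK against Ctrl mice, and their median was 0.33. None of the 22 passed edgeR's adjusted p, and 2 of 22 had an unadjusted p under 0.05, beside 2.52% of all genes. These were Ccn3, a CCN family protein (2.07 ± 0.87, SE), and Fstl1, a secreted SPARC-like glycoprotein (1.34 ± 0.57, SE). Fstl1 measured 668 and 210 CPM in NK1 and NK2, against 260, 112 and 150 CPM in KO1, KO2 and KO3, so NK2 lay within the Ctrl range. Among the Ctrl mice Efemp1, which encodes fibulin 3, passed the test (edgeR adjusted p = 0.0247), 1 of 21 tested there beside 2.70% of all genes, with 7.88, 39.0 and 9.66 CPM in KO1, KO2 and KO3. Genes at 0 in all lesions were 4 of the 34, among them the bone genes Ibsp and Mepe.

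Receptors of the members gave 14 positive and 10 negative values among 24 tested of 25, with a median of 0.10 and 0 past edgeR's adjusted p. The 3 with the highest levels were Sdc1, Cd44 and Itgb1, at means of 732, 378 and 238 CPM over the lesions. At an unadjusted p under 0.05 there was 1 of 24, beside 2.52% of all genes. This was the growth factor receptor Egfr, at 44.3 and 38.9 CPM in NK1 and NK2, against 22.9, 24.0 and 17.1 CPM in KO1, KO2 and KO3. Alk, a receptor linked to pleiotrophin, was at 0 in all lesions. Ptprz1, the pleiotrophin receptor, was at 16.5 CPM in NK1 and 0.232 CPM in NK2, against 1.48, 0.066 and 0.783 CPM in KO1, KO2 and KO3. Ptprz1 was named after its values were seen.

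Genes that cut, cross-link or fill the matrix had 10 positive and 11 negative values among 21 tested of 23, with a median of -0.03 and 0 past edgeR's adjusted p. At an unadjusted p under 0.05, 1 of 21 was higher with NK cells, beside 1.55% of all genes. This was Adamts1, a protease that cleaves versican (1.42 ± 0.57, SE). Lower were 2 of 21, beside 0.969% of all genes, namely Mmp9 (-2.30 ± 0.73) and Has1 (-2.10 ± 0.86). Mmp9, the gelatinase B that neutrophils carry, was at 19.2 and 54.8 CPM in NK1 and NK2, against 62.8, 235 and 249 CPM in KO1, KO2 and KO3. The 9 neutrophil markers summed to 101 to 333 CPM in NK lesions and 173 to 4437 CPM in Ctrl lesions, and their part in the Mmp9 values was not tested. Among the Ctrl mice Mmp9 (edgeR adjusted p = 0.0473), Mmp2 (0.0458) and Mmp3 (0.0404) passed the test, 3 of the 20 tested there, beside 2.70% of all genes.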

How the data were processed

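Lesions were captured by laser from frozen lung sections, and 2 ng of total RNA per lesion went into a kit for single cell libraries, per the labels' protocols. The tools named in the submitters' processing notes are RSEM 1.2.28, STAR, DESeq2 and bcl2fastq 2.17, and the build named is mm10. Other settings are not given in the sources used here. The authors deposited a gene table of unscaled expected counts (93.1% of values whole), which were rounded to whole numbers, and a second, normalized table, whose values look like a log2 scale and which served as an alternative.

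Counts were summed per mouse for NK against Ctrl (2 and 3 mice) and kept per lesion for comparisons among mice of 1 group. Tests were edgeR 4.0.16 quasi-likelihood fits (R 4.3.3, TMM, robust, filterByExpr with a minimum count of 10 and total of 15), with Benjamini-Hochberg adjustment over all genes tested. SE is the log2 fold change divided by the root of F. DESeq2 1.42.0 and limma 3.58.1 served for alternatives, and the procedure was tested on simulated data. CPM of lesions were scaled over 18 lesions and CPM of mice over 5 sums. Deeper lesions weigh more in a sum, so a mouse value can differ from the mean of its lesions. In NK1, Edil3 was 35.7 CPM by the sum and 21.8 CPM as the lesion mean, and Postn was 232 and 150 CPM. In NK2, Edil3 was 8.01 and 7.53 CPM, and Postn was 32.8 and 31.5 CPM. Gene coordinates and exon lengths are from GENCODE M21 on GRCm38, matched on Ensembl IDs without version. There were 0 further columns of sample values. Counts of any 2 lesions from 1 mouse differed by more than counting noise (chi-square per degree of freedom of at least 23.8). None of these pairs thus appeared to be 1 set of counts deposited under 2 names. Pairs of lesions from different mice were not compared.

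The members and the lists of relatives, receptors, remodelling genes and cell type markers were chosen with earlier results of these data known. Besides the members, genes were named where a list member passed a test (at most 4 per list), otherwise as the 3 with the highest level, and as the 3 most like each member by rank correlation, given for 5 members. Genes with an unadjusted p under 0.05 are named as well, after their values were seen.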

Additional observations from a re-analysis of the deposited data

Results flagged for a closer look

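Single lesions were far from the others of their group in 6 of 40 groups of member values. The nominal rate of about 1 in 20 groups assumes independent values with a normal spread. The NK2 lesions were tested alone and again among the NK lesions, and genes share lesions. The count was therefore not compared with that rate. Among the NK lesions, NK1-1 was high for Postn (351 CPM, next 69.4 CPM), Edil3 (56.6 CPM, next 9.25 CPM) and Ptn (124.6 CPM, next 26.8 CPM), and the same lesion had the highest sums of fibroblast, cardiac muscle and fat cell markers. Among the KO1 lesions, KO1-5 was high for Thbs1 (104.7 CPM, next 34.7 CPM). Among the KO2 lesions, KO2-4 was high for Thbs2 (23.8 CPM, next 18.3 CPM) and Sparc (380 CPM, next 320 CPM), which are small gaps among 4 close values.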

How the results depend on the processing

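The genes were chosen with the NK-against-Ctrl values known, and the alternatives reuse the same lesions, so the signs are a description. All 10 fold changes between NK and Ctrl mice were computed under 34 alternatives each, and 334 of 340 values were positive. The 6 negative ones were Thbs1 at -0.056 in the authors' normalized table, -0.19 with equal weight for each lesion and -0.14 without NK1-1, and Spp1 at -0.29 without mouse NK2, -0.17 without mouse KO3 and -0.25 with the host number as a replicate block. Without 1 mouse or lesion, Thbs1 ranged up to 0.70 and Spp1 up to 0.69. Members called by edgeR were 0 in the main fit and 4 with no filter on low counts (Postn, Thbs2, Edil3 and Ptn). With no filter edgeR called 224 genes (0.856%), 1 remodelling gene among them. The edgeR adjusted p of Ptn was 0.9998 in the main fit and 6.03e-05 with no filter. DESeq2 called 1 member among 39 genes (0.223%). The members' median log2 fold change of 1.29 was 0.79 in the authors' table and 0.72 without lesions over 40% mt-Rnr2, which leaves NK2 as the lone NK mouse, assumed to vary like the others. With equal weight for each lesion the median was 0.98. Leaving out 1 mouse or lesion gave 0.80 to 1.48, with 0.80 without NK1, 0.83 without NK1-1 and 1.48 without KO3-1. Among the Ctrl mice 1 member passed, against 0 with no filter, 3 with DESeq2 (14.5% of all genes) and 0 to 3 when 1 lesion was left out (3 without KO3-1, where 13.3% of all genes passed, and 1 without KO1-5). Between NK1 and NK2, DESeq2 called 1 member. There the sign turned for Fn1 (-0.12 without NK1-2 to 0.82 without NK1-3), Tnc (-0.73 without NK1-2 to 0.032 without NK2-2), Sparc (-0.59 without NK1-1 to 0.43 without NK1-3, and 0.24 without both) and Edil3 (-0.71 without NK1-1 to 2.04 without NK1-2, and -0.97 without NK1-1 and NK1-3). The cause was not tested. With the replicate block, 7 genes and 0 members were called and the median was 1.17. Host numbers 1 and 2 occur in both groups, and deviations correlated at 0.12 and 0.35. With 2 NK mice these values hold little information, and no label says that a number is shared, so the numbers were not used as pairs. Depth limits Edil3 most, with under 40 counts in every Ctrl lesion. Leaving out NK1-1 and NK1-3, or among Ctrl mice lesions over 40% mt-Rnr2, was chosen after the data were seen.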
